A study of Ixodes ricinus with 9 samples.

Results

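The central carbon metabolism enzymes are the genes of the count table whose Swiss-Prot match carries the name of an enzyme of glycolysis, pyruvate metabolism, the citric acid cycle or the pentose phosphate pathway. Members were chosen by name alone, read with the capital letters as the rule gives them, and 35 of the 28510 genes carried such a name. By enzyme, 9 belonged to glycolysis, 12 to the citric acid cycle and 2 to the pentose phosphate pathway. A further 7 lay around pyruvate: pyruvate dehydrogenase subunits, its kinase and phosphatases, and pyruvate carboxylase (labelled pyruvate entry in figures). The other 5 shared only a word with the rule: 4-hydroxy-2-oxoglutarate aldolase, a pair of procollagen-lysine dioxygenases and the oxygenases OGFOD3 and JMJD4. DHKTD1 was placed with the citric acid cycle because its match is named as a 2-oxoglutarate dehydrogenase component. Cytoplasmic isocitrate and malate dehydrogenases were placed there by name too.

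RNA came from midguts of adult female Ixodes ricinus ticks, taken after 7 days of feeding on bovine blood in an artificial system, with glucose and ATP added to the blood. Before feeding, ticks had been injected with double-stranded RNA (dsRNA) against antigen p23, against a metalloprotease, or against GFP, a sequence the tick does not have, as the control. A group held 9 ticks, and midguts were pooled by 3 before RNA extraction, with 1 library made per pool, so every value below has n = 3 per group and is given for replicates 1, 2 and 3 in that order. By the study's own account the metalloprotease was only partly silenced in midgut. The sources used here do not pair either target with a gene of the table, so the knockdown itself is not analysed here. Pools of separate ticks are the replicates, and all groups share injection, blood and feeding day.

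Glycolysis splits glucose into pyruvate and yields ATP and NADH in the cytosol, with hexokinase, phosphofructokinase and pyruvate kinase as its irreversible steps. Pyruvate dehydrogenase turns pyruvate into acetyl-CoA for the citric acid cycle, whereas pyruvate carboxylase turns it into oxaloacetate, which refills the cycle or feeds the making of glucose through PEP carboxykinase and fructose-1,6-bisphosphatase. The pentose phosphate pathway makes NADPH and ribose from glucose 6-phosphate. Tick midgut cells take up and digest a meal that is rich in protein and poor in sugar.

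Library totals ranged from 3303358 to 9430607 counts and detected genes from 6294 to 10988. The fewest genes were detected in antigen p23 replicates 1 (7291) and 2 (6294), against 9136 to 10988 in the other 7 libraries. GFP control replicate 2 and metalloprotease replicate 1 stood apart in another way: across genes they correlated with each other at r = 0.98, and with the remaining libraries at 0.91 to 0.96, and they had the highest TMM scaling factors (1.26 and 1.17). Of the genes named for digestive midgut proteases (legumain, cathepsins B, D and L), 11 of 22 were detected, at a summed level of 1526 to 4532 CPM (counts per 1000000 of the library total, as for all marker sums here). Muscle (19 of 20 genes, 999.9 to 3079 CPM), nerve (11 of 12 genes, 47.3 to 145 CPM) and vitellogenin genes (4 of 6, 1.66% to 6.30% of counts) were present too, and no gene model carried the name tropomyosin. In such bulk tissue, fewer cells of a type and less RNA per cell cannot be told apart.

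Members ranged from 0 counts in every library to rank 46 among all genes. A level within a gene is a CPM value, its count per 1000000 of the TMM-scaled size of the library, and genes are compared by CPM per kb of coding length. Averaged over the 9 libraries, 9 members lay above 100 CPM per kb, 15 between 10 and 100, and 7 below 10, and 4 had 0 counts in every library. The median of all 35 members was 32.1 CPM per kb, against 2.77 over the 12932 genes with a count. Together they took 0.767% to 1.96% of a library. One gene, DHKTD1, accounted for 41.7% to 75.7% of the members' counts.

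**Figure D1:**
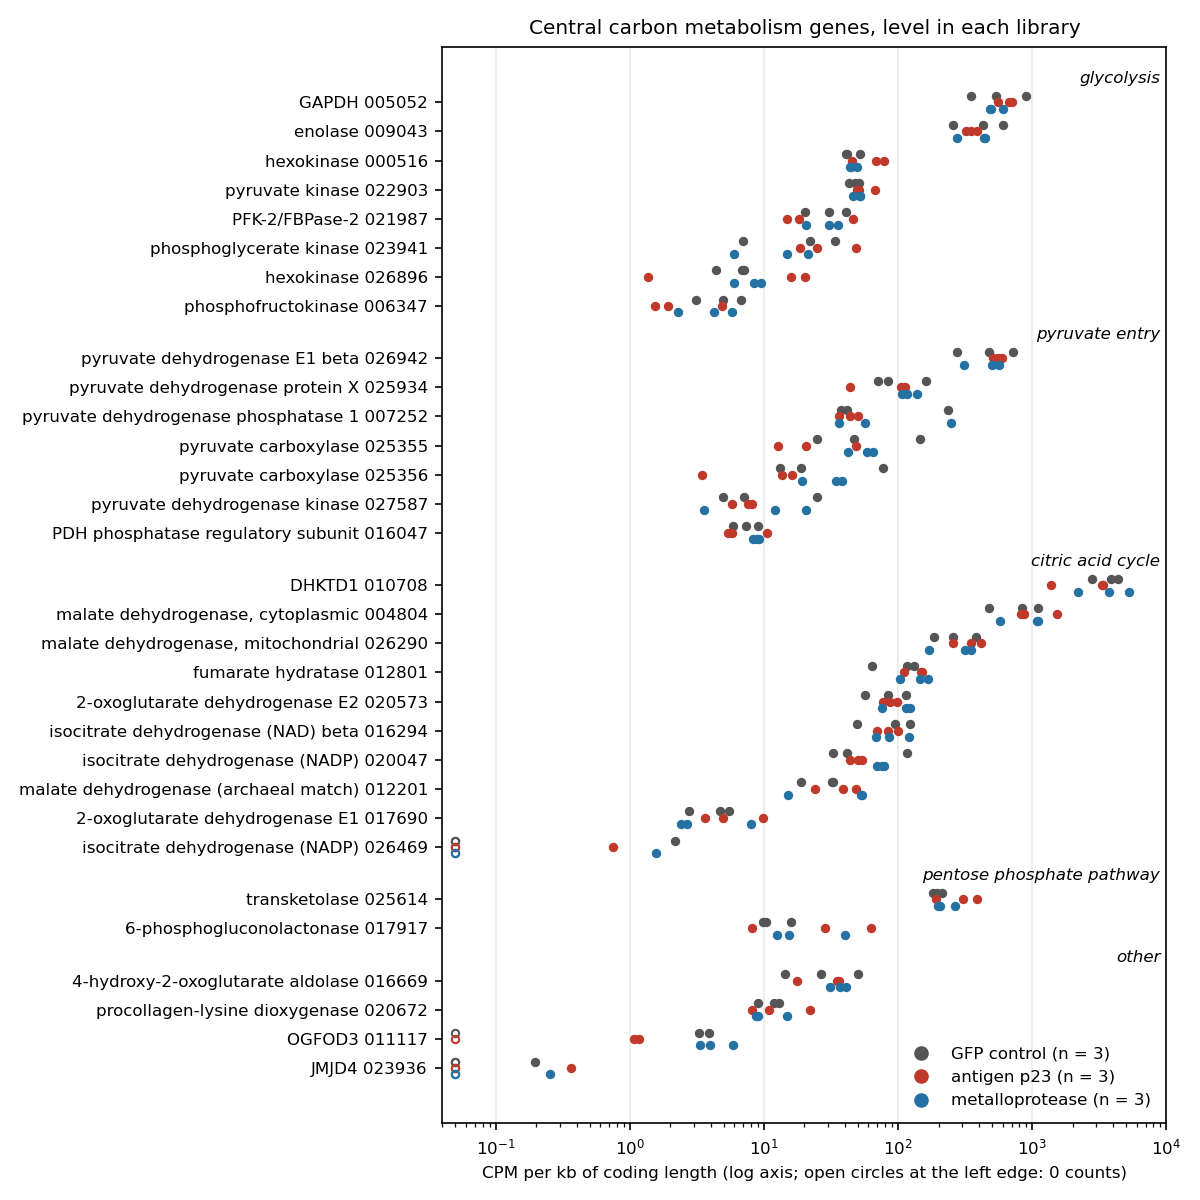
Each dot is 1 library (GFP control grey, antigen p23 red, metalloprotease blue), the horizontal log axis is CPM per kb of coding length, and the rows are the 31 members with a count, grouped by pathway and labelled with the last digits of the gene ID; open circles mark 0 counts. DHKTD1 is the highest member (mean 3366 CPM per kb), and the colours overlap in nearly every row.

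In glycolysis the levels of successive steps differed widely. Glyceraldehyde-3-phosphate dehydrogenase (HPB47_005052), which makes NADH, averaged 591 CPM per kb and was the highest glycolytic member (outside the rule, the phosphoglycerate mutase HPB47_011393 averaged 677 CPM per kb). Enolase (HPB47_009043), which forms phosphoenolpyruvate, averaged 388 CPM per kb. Phosphofructokinase (HPB47_006347), the main control point of the pathway and the single gene model with that domain, averaged 3.92 CPM per kb, with a spread of 1.54 to 6.68 that lay below every value of those 2 enzymes.

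Both hexokinases, which phosphorylate glucose on entry, match mammalian hexokinase-2 and were detected in all libraries. HPB47_000516 stood at 61.7, 78.6 and 63.4 CPM in GFP control, at 68.9, 119.8 and 103 in antigen p23, and at 74.5, 66.6 and 67.0 in metalloprotease. Its highest values were those of antigen p23 replicates 2 and 3, and all groups overlapped. The second model, HPB47_026896, gave 10.8, 6.63 and 10.4 CPM, then 2.08, 30.5 and 24.0, then 9.01, 14.4 and 12.7 in the same order of groups. It held both the lowest and the highest value of the series within the antigen p23 group. The ratio of the first to the second per kb was accordingly 33.2 in antigen p23 replicate 1, against 3.93 to 11.9 in the other libraries.

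Pyruvate kinase (HPB47_022903), the last step, was the steadiest member. It measured 80.3, 75.4 and 67.8 CPM in GFP control. Antigen p23 libraries gave 81.1, 77.4 and 106 CPM and metalloprotease libraries 81.8, 82.4 and 72.5, a range of 1.56-fold where the median member above 10 CPM per kb ranged 3.16-fold. Phosphoglycerate kinase (HPB47_023941), which makes the first ATP of the pathway, varied 8.08-fold between 5.27 and 42.6 CPM. Its lowest values were in metalloprotease replicate 1 and GFP control replicate 1 and its highest in antigen p23 replicate 1. The regulator 6-phosphofructo-2-kinase/fructose-2,6-bisphosphatase (HPB47_021987) is named for both making and breaking down the activator of phosphofructokinase. It ranged from 20.7 to 64.5 CPM, both of them antigen p23 libraries.

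Aldolase (HPB47_017880), which cleaves fructose 1,6-bisphosphate, had 0 counts in all 9 libraries. It is the single gene model of the table with the class I aldolase domain. A count of 0 allows up to 3 counts, or 0.318 to 0.908 CPM depending on the library, so a higher level at this gene model was not seen in any library. Whether reads of the Ixodes ricinus gene align to this Ixodes persulcatus model was not tested.

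Around pyruvate, the subunit E1 beta of pyruvate dehydrogenase (HPB47_026942) was the highest member at 500.4 CPM per kb on average. It stood at 522, 299.9 and 787 CPM in GFP control, 565, 609 and 658 in antigen p23, and 339, 556 and 623 in metalloprotease. The lowest values were those of GFP control replicate 2 and metalloprotease replicate 1. Protein X (HPB47_025934), which anchors the E3 subunit to the complex core, gave 102, 233.4 and 119.9 CPM, then 163, 63.4 and 152, then 199.6, 153 and 166. Here the same pair of libraries was highest. The ratio of E1 beta to protein X per kb was therefore 1.68 in GFP control replicate 2 and 2.22 in metalloprotease replicate 1, against 4.54 to 12.6 in the other 7.

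Phosphatase 1 of the complex (HPB47_007252), which reactivates pyruvate dehydrogenase, repeated that split more sharply. It measured 29.0, 184 and 32.6 CPM in GFP control, 28.1, 34.4 and 39.2 in antigen p23, and 195, 28.5 and 44.2 in metalloprotease. All libraries but GFP control replicate 2 and metalloprotease replicate 1 lay between 28.1 and 44.2 CPM. The opposing kinase (HPB47_027587), which switches the complex off, was weak at 2.91 to 20.4 CPM and was highest in GFP control replicate 3 and metalloprotease replicate 2. The regulatory subunit of the phosphatase (HPB47_016047) lay between 13.9 and 27.0 CPM. E1 beta, protein X and phosphatase 1 are 3 of the 6 members whose gene model spans no more than its coding length, that is, holds no intron.

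**Figure D2:**
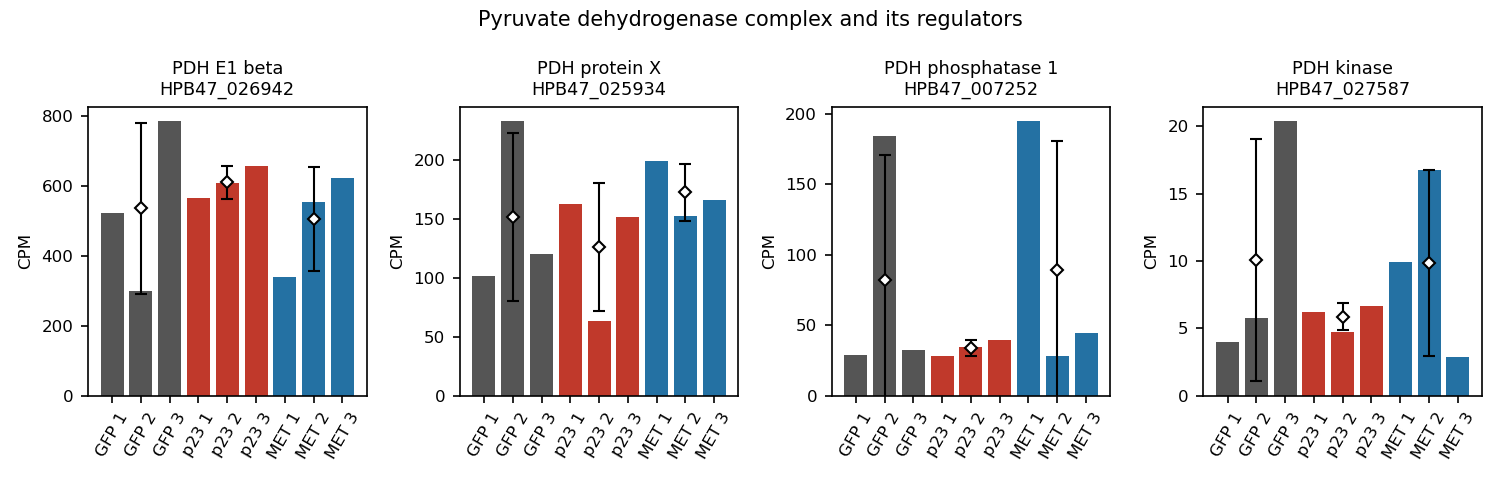
Bars are CPM in each of the 9 libraries for E1 beta, protein X, phosphatase 1 and kinase of pyruvate dehydrogenase; white diamonds with whiskers are group means ± SD (n = 3), and whiskers that reach below 0 end at the axis. In phosphatase 1, GFP control replicate 2 (184 CPM) and metalloprotease replicate 1 (195 CPM) stand apart from the other 7 libraries.

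Pyruvate carboxylase, which makes oxaloacetate from pyruvate, was represented by a pair of neighbouring gene models on the minus strand of 1 scaffold of the Ixodes persulcatus assembly BIME_Iper_1.3. HPB47_025355 (positions 161697 to 186645) carries the carboxyltransferase-type (HMGL-like), conserved carboxylase and biotin domains, and HPB47_025356 (positions 188358 to 223720) the biotin carboxylase domains, with 1712 bases between them. In animals a single protein holds all of these domains. HPB47_025355 gave 89.8, 47.6 and 281 CPM in GFP control, 24.3, 92.5 and 39.5 in antigen p23, and 81.3, 113 and 125 in metalloprotease. HPB47_025356 gave 30.9, 21.6 and 126 CPM, then 26.3, 5.63 and 22.4, then 31.6, 56.9 and 62.9. GFP control replicate 3 was highest in both, and the antigen p23 libraries were low in both except replicate 2 in the first.

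The ratio of the pair varied least among 7 libraries, where HPB47_025355 had 1.76 to 2.91 times the counts of HPB47_025356. Antigen p23 replicates 1 and 2 departed from it in opposite directions. Replicate 1 had 70 and 76 counts, so that HPB47_025355 held 47.9% of the pair (exact Clopper-Pearson 95% interval 39.6% to 56.4%), and replicate 2 had 312 and 19 counts, a share of 94.3% (91.2% to 96.5%). These intervals cover counting error only. The same 2 libraries detected the fewest genes. Replicate 2 also stood apart at the neighbouring models of the succinate-CoA ligase beta subunit (HPB47_025153 and HPB47_025152, which are no members), with a ratio of 6.71 against 0.753 to 1.74 elsewhere, whereas replicate 1 did not (1.31).

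**Figure D3:**
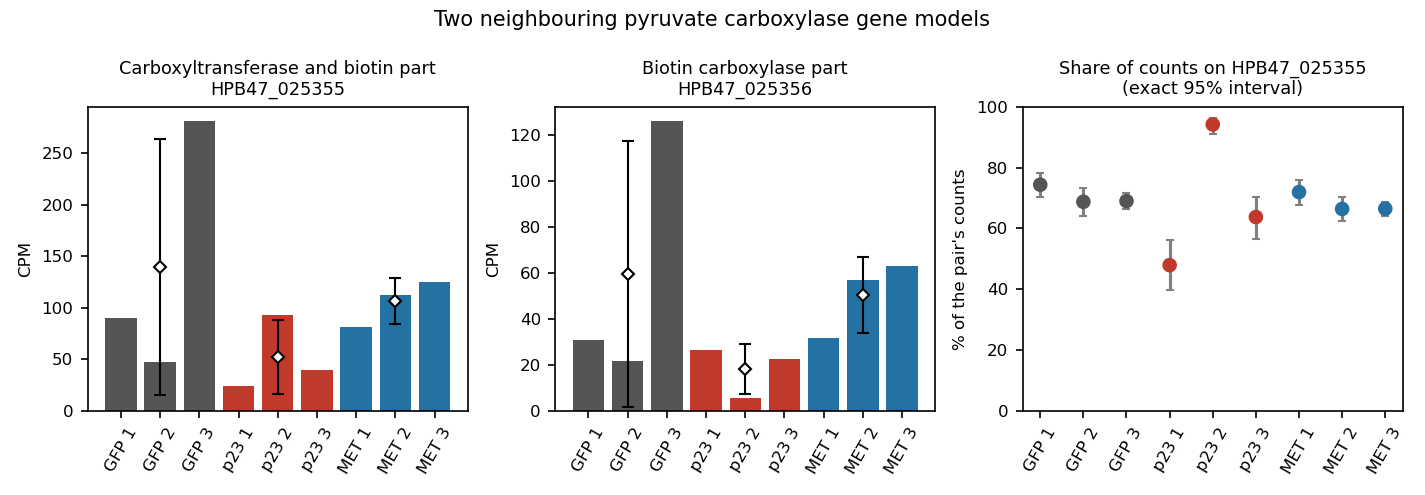
The left and middle bars show CPM of the pair of pyruvate carboxylase gene models in each library, with white diamonds for group means ± SD (n = 3), and the right plot shows the share of the pair's counts on HPB47_025355 with exact 95% intervals. GFP control replicate 3 is the highest library in both models, and antigen p23 replicates 1 (47.9%) and 2 (94.3%) depart from the other shares.

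In the citric acid cycle DHKTD1 (HPB47_010708) exceeded every other member. In mammals DHKTD1 is the E1 subunit of the 2-oxoadipate dehydrogenase complex, which acts in the breakdown of lysine and tryptophan. It averaged 3366 CPM per kb and ranked 46 among all genes. Its raw counts were 47854, 47736 and 40587 in GFP control, 11637, 33262 and 30363 in antigen p23, and 28741, 51650 and 100842 in metalloprotease. As a share of the library this was 1.13%, 1.02% and 1.23%, then 0.320%, 0.955% and 0.919%, then 0.738%, 1.48% and 1.07%. All antigen p23 shares lay below all GFP control shares, but after TMM scaling the groups overlapped. Vitellogenin took 1.66%, its lowest share, in the library where DHKTD1 was lowest (antigen p23 replicate 1) and 6.30%, its highest, where DHKTD1 was highest (metalloprotease replicate 2), and its part in these values was not tested.

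The E1 subunit proper of the cycle, 2-oxoglutarate dehydrogenase (HPB47_017690), averaged 4.93 CPM per kb with 12 to 109 counts per library. DHKTD1 was 281 to 2183 times higher per kb, with the lowest ratios in antigen p23 replicates 1 and 2 and the highest in metalloprotease replicate 2. The HPB47_017690 model has 1473 bases and no Dehydrogenase E1 domain, whereas the DHKTD1 model has 2904 bases and that domain. HPB47_017690 may thus be a partial model, and the part of this in the ratios was not tested. The E2 subunit (HPB47_020573), which both kinds of complex use in mammals, averaged 92.0 CPM per kb and lay between 44.7 and 97.1 CPM.

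Malate dehydrogenases, which interconvert malate and oxaloacetate, followed DHKTD1. The cytoplasmic form (HPB47_004804) averaged 934 CPM per kb, with 843, 482 and 1116 CPM in GFP control, 1549.9, 884 and 827 in antigen p23, and 578, 1105 and 1114 in metalloprotease. The mitochondrial form (HPB47_026290) averaged 297 CPM per kb, and its gene model also carries a tubulin domain, so its counts may include another transcript. Cytoplasmic exceeded mitochondrial in every library, by 2.52 to 3.73 times per kb, the narrowest ratio of those compared. Both forms were lowest in GFP control replicate 2 and metalloprotease replicate 1.

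Fumarate hydratase (HPB47_012801), which makes malate, averaged 126 CPM per kb and ranged from 89.5 to 234 CPM. Isocitrate dehydrogenase was present as the NAD-linked beta subunit (HPB47_016294, 51.7 to 128 CPM) of the cycle and as the NADP-linked cytoplasmic enzyme (HPB47_020047), a source of NADPH. The latter gave 48.8, 38.4 and 137 CPM in GFP control, 51.6, 59.6 and 63.6 in antigen p23, and 92.1, 88.9 and 82.2 in metalloprotease. Antigen p23 lay wholly below metalloprotease, while GFP control spread across both.

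A second NADP-linked model (HPB47_026469), also without introns, had 16 counts in GFP control replicate 2, 9 in metalloprotease replicate 1, 3 in antigen p23 replicate 3 and 0 elsewhere. A malate dehydrogenase with an archaeal best match (HPB47_012201) ranged from 13.8 to 49.0 CPM, lowest in metalloprotease replicate 1 and GFP control replicate 2. A pair of malate dehydrogenase models with a plant best match (HPB47_005536 and HPB47_005695, each 1035 bases without introns) had 0 counts in all libraries.

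In the pentose phosphate pathway, transketolase (HPB47_025614), which moves carbon between sugar phosphates, averaged 238 CPM per kb. It measured 342, 397 and 365 CPM in GFP control, 729.9, 570.3 and 363 in antigen p23, and 385, 376 and 497 in metalloprotease. Antigen p23 replicates 1 and 2 were the highest libraries, and replicate 3 lay within the control range. The NADPH branch member 6-phosphogluconolactonase (HPB47_017917) gave 8.72, 9.19 and 14.1 CPM, then 7.28, 56.0 and 25.3, then 13.6, 35.8 and 11.2. Antigen p23 replicate 2 was highest and replicate 1 lowest, so this group spanned the others.

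Of the 5 genes that share only a word with the rule, 4-hydroxy-2-oxoglutarate aldolase (HPB47_016669), a mitochondrial enzyme of hydroxyproline breakdown in mammals, was the highest at 32.1 CPM per kb. Its level ran from 14.1 CPM in GFP control replicate 1 to 49.3 in GFP control replicate 2. A procollagen-lysine dioxygenase (HPB47_020672), which hydroxylates collagen, lay between 8.54 and 22.8 CPM, and its neighbour HPB47_020670 had 0 counts. OGFOD3 (HPB47_011117) had 0, 17 and 11 counts in GFP control, 3, 0 and 3 in antigen p23, and 16, 10 and 48 in metalloprotease, and JMJD4 (HPB47_023936) had 3 counts in all.

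Enzymes of opposing steps were set side by side per kb within each library, with 2 genes outside the rule. Fructose-1,6-bisphosphatase (HPB47_003239), which reverses the phosphofructokinase step, was 42.8 to 155 times higher than phosphofructokinase, with a median of 55.5. Cytosolic PEP carboxykinase (HPB47_005193), which leads from oxaloacetate toward glucose, was 7.62 to 34.8 times higher than pyruvate kinase, with a median of 24.5. In all 9 libraries the gluconeogenic gene model was thus the higher of each pair, as these were chosen, at the RNA level. A second cytosolic PEP carboxykinase model (HPB47_016997) went the other way. It averaged 2.26 CPM per kb (0 to 6.94), below pyruvate kinase (43.0 to 67.1) in every library. These ratios describe transcripts aligned to another species and carry no test.

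**Figure D4:**
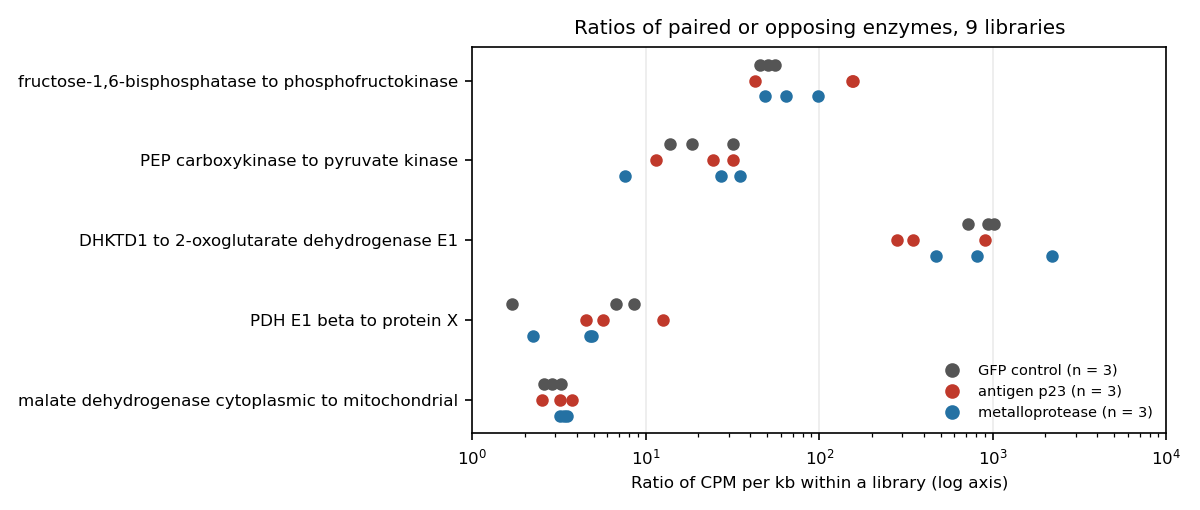
Each dot is the ratio of CPM per kb of a pair of enzymes in 1 library, coloured by group (n = 3 each), on a log axis. Fructose-1,6-bisphosphatase to phosphofructokinase (42.8 to 155) and PEP carboxykinase HPB47_005193 to pyruvate kinase (7.62 to 34.8) lie above 1 in every library. The malate dehydrogenase ratio has the narrowest range (2.52 to 3.73).

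The first comparison asked whether silencing antigen p23 changed these enzymes relative to GFP control. With edgeR's quasi-likelihood fit of these 6 libraries, 0 of 28 tested members passed an adjusted p of 0.05, as did 0% of all 6381 tested genes. At an unadjusted p of 0.05 the count was 0 of 28 members, against a background of 3.26% of all tested genes. DESeq2 called 0 members after adjustment (background 0.0786%) and 3 of 31 before it (background 3.65%). In 0 of 28 members did the groups fail to overlap, against 11.4% of all tested genes. The median log2 fold change was 0.07 over the members and -0.10 over all tested genes, with 15 members above 0 and 13 below, where 44% of all tested genes were above 0.

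By pathway, the 7 gene models around pyruvate, both pyruvate carboxylase models among them, had a median log2 fold change of -0.77. Of these, 6 were below 0, the regulatory subunit of the phosphatase only by -0.03. The median was the value of the weak kinase HPB47_027587, at 6.24, 4.74 and 6.64 CPM in antigen p23. GFP control gave 4.01, 5.78 and 20.4 CPM there, so only its replicate 3 lay above all antigen p23 libraries. For protein X (-0.29), only GFP control replicate 2 (233.4 CPM) did so. Glycolysis (0.17, with 5 of 8 above 0), the citric acid cycle (0.30, with 6 of 9 above 0) and the pentose phosphate pathway (1.02, both above 0) had positive medians. None of these genes passed. The smallest p belonged to a pyruvate carboxylase model, with mean levels of 18.1 ± 11.0 CPM in antigen p23 and 59.4 ± 57.7 in GFP control for HPB47_025356 (log2 fold change -1.71, SE 0.78, edgeR adjusted p = 0.964). The other model, HPB47_025355, which came after 6-phosphogluconolactonase by p, stood at 52.1 ± 35.8 and 139 ± 124 CPM (log2 fold change -1.41, SE 0.69, edgeR adjusted p = 0.964). DESeq2 put both under an unadjusted p of 0.05 (DESeq2 adjusted p = 0.853 and 0.904).

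The size of this difference rested on GFP control replicate 3. Without that library the log2 fold changes were -0.54 for HPB47_025356 and -0.41 for HPB47_025355, and without the other control replicates they were -2.02 and -2.10 for HPB47_025356 and -1.65 and -1.81 for HPB47_025355. With the pair summed into 1 gene, which was tried after the data had been seen, the log2 fold change was -1.50 (SE 0.61, edgeR adjusted p = 0.964). Phosphatase 1 of pyruvate dehydrogenase had a log2 fold change of -1.31 (SE 0.70, edgeR adjusted p = 0.964), which turned to 0.15 without GFP control replicate 2. Summed nerve markers, taken per library total, did not overlap between these groups (131 to 145 CPM in GFP control, 47.3 to 103 in antigen p23). The metalloprotease libraries (93.7 to 113 CPM) also lay below GFP control. TMM factors ran from 0.794 in antigen p23 replicate 1 to 1.26 in GFP control replicate 2. Whether the sums would separate with TMM scaling was not tested. The part of the nerve markers in the member values of either comparison was not tested either.

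Among the members above control, 6-phosphogluconolactonase had the largest value (log2 fold change 1.46, SE 0.71, edgeR adjusted p = 0.964, DESeq2 adjusted p = 0.904). It was 0.61 without antigen p23 replicate 2 and 1.92 without replicate 1. Transketolase had the next smallest p of those above control (log2 fold change 0.58, SE 0.32, edgeR adjusted p = 0.964), and its value was -0.017 when antigen p23 replicates 1 and 2 were left out together. The hexokinases gave 0.50 (SE 0.34) and 1.02 (SE 0.84), and DHKTD1 gave -0.46 (SE 0.38), each smaller than 2 of its standard errors.

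**Figure D5:**
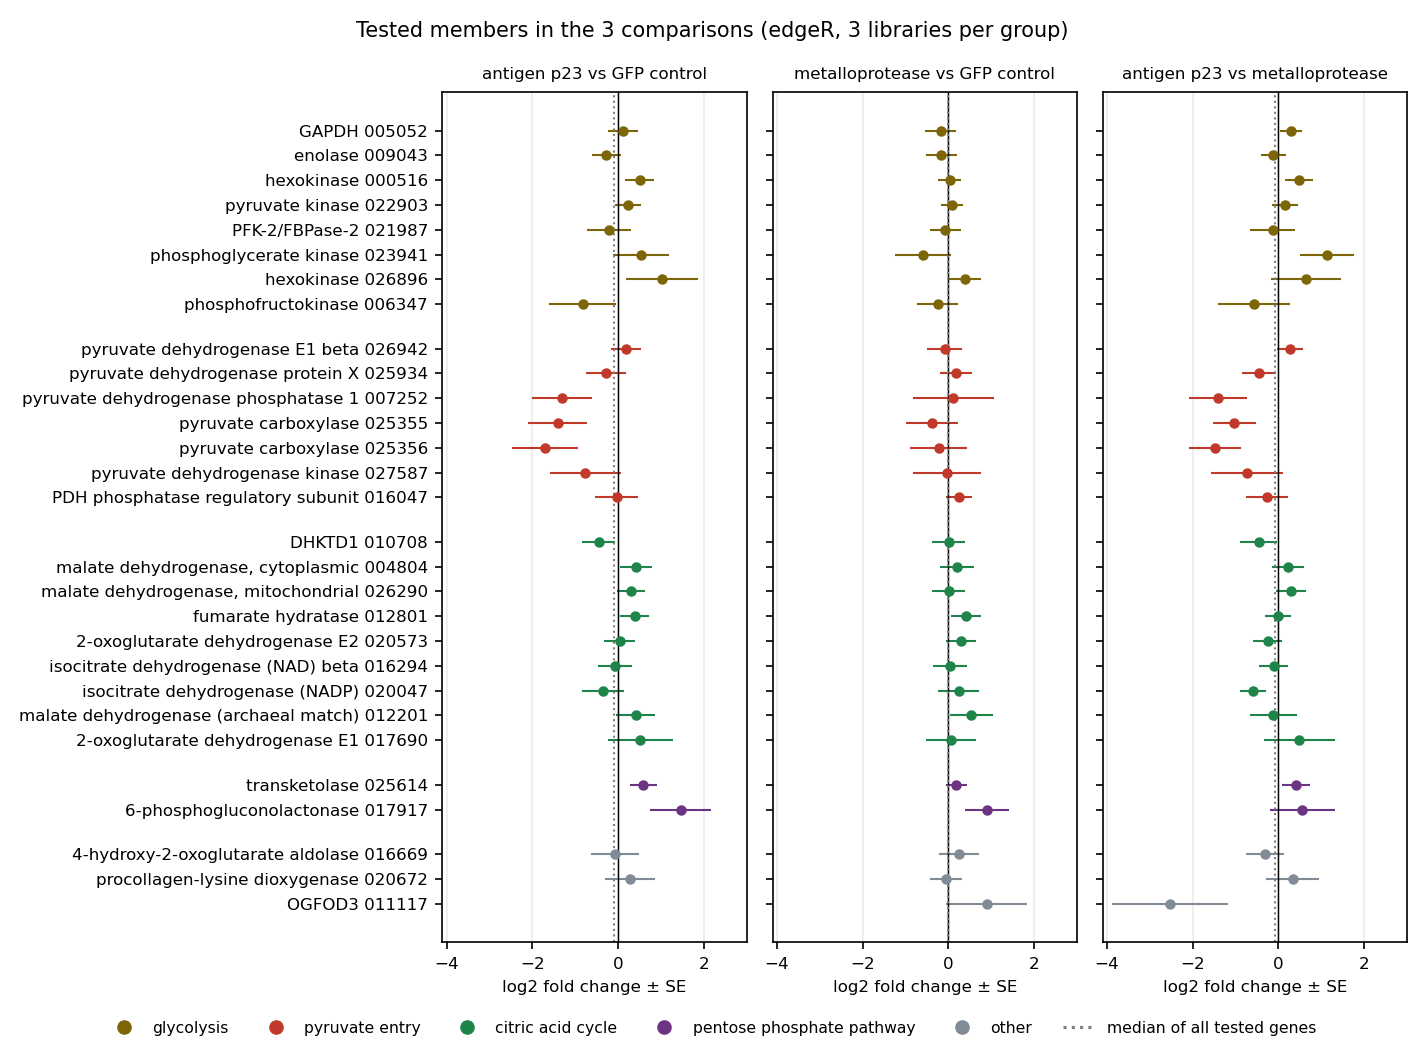
Dots are edgeR log2 fold changes of the 29 members tested in at least 1 comparison, whiskers are ± SE, colours mark the pathway, the solid line is 0 and the dotted line is the median of all tested genes. Gene models around pyruvate (red) lie to the left in both comparisons of antigen p23, with 6 of 7 below 0 in each. These 7 include both pyruvate carboxylase models, and the comparisons share the antigen p23 libraries. Several of the 7 had a single high GFP control library. In every comparison 0 members passed an adjusted p of 0.05.

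In the comparison of metalloprotease with GFP control, 0 of 29 tested members passed after adjustment in edgeR (0% of all 6786 tested genes), and 0 did so at an unadjusted p of 0.05, against a background of 1.43%. DESeq2 gave 0 members both ways (backgrounds 0% and 1.44%). The groups overlapped for all 29 members, against 5.57% of all tested genes without overlap. The median log2 fold change was 0.06 for the members and -0.0048 for all tested genes, and 19 of 29 members were above 0, where 49.4% of all tested genes were. All 9 tested genes placed by name with the citric acid cycle were above 0, but by small amounts. Their median was 0.20, from 0.0084 for DHKTD1 to 0.54 for the archaeal-type malate dehydrogenase (SE 0.50). Besides these, the 9 include cytoplasmic malate and NADP-linked isocitrate dehydrogenases, so they are not all enzymes of the cycle proper.

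The largest value in that comparison was again 6-phosphogluconolactonase (log2 fold change 0.91, SE 0.51, edgeR adjusted p = 1.00). For the pyruvate carboxylase models the values were -0.38 (SE 0.61) and -0.23 (SE 0.66), and both turned positive without GFP control replicate 3 (0.63 and 0.95). Phosphatase 1 had a value of 0.12 (SE 0.94), since 1 library of each group was high. It was 1.56 without GFP control replicate 2 and -1.18 without metalloprotease replicate 1.

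Set against each other, antigen p23 and metalloprotease differed at 0 of 29 tested members after adjustment in edgeR (0% of 6383 tested genes) and in DESeq2 (background 0.275%). At an unadjusted p of 0.05, edgeR called 1 member (background 2.57%) and DESeq2 called 2 (background 3.47%), all lower in antigen p23 (background of edgeR calls in that direction 1.52%). The edgeR call was the biotin carboxylase model of pyruvate carboxylase, HPB47_025356, at 18.1 ± 11.0 against 50.5 ± 16.6 CPM (log2 fold change -1.47, SE 0.60, edgeR adjusted p = 0.998). Every antigen p23 library was below every metalloprotease library. The value was -1.05, past no threshold, without antigen p23 replicate 2, in which the pair's ratio was unusual.

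For HPB47_025355 the log2 fold change was -1.03 (SE 0.50, edgeR adjusted p = 0.998), and for the summed pair -1.16 (SE 0.37, edgeR adjusted p = 0.998). DESeq2 also put phosphatase 1 of pyruvate dehydrogenase under an unadjusted p of 0.05 (log2 fold change -1.41, DESeq2 adjusted p = 0.942), and in edgeR this value was -0.11 without metalloprotease replicate 1. Groups did not overlap for 3 members, all lower in antigen p23: HPB47_025356, NADP-linked isocitrate dehydrogenase (log2 fold change -0.59, SE 0.31, edgeR adjusted p = 0.998) and OGFOD3 (-2.52, SE 1.35, edgeR adjusted p = 0.998, from 0 to 3 counts per antigen p23 library). Over all tested genes 8.73% did not overlap, and 5.04% with antigen p23 lower. The median log2 fold change was -0.11 over members and -0.07 over all tested genes, with 12 of 29 members above 0 (44.8% of all tested genes). Of the 7 gene models around pyruvate, both pyruvate carboxylase models among them, 6 were below 0 (median -0.73). The comparisons of antigen p23 with each other group share the antigen p23 libraries, and those with GFP control share the control libraries.

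Other enzymes of these pathways lay outside the rule through their spelling or name. Of 10 genes for the same steps spelled otherwise, 7 or 8 were tested, and of 24 neighbouring pathway genes 18 were tested. In every comparison 0 of either list passed in edgeR, at an adjusted or unadjusted p of 0.05, and DESeq2 called 0 in either way as well. Against GFP control, antigen p23 gave the smallest p at a model of the succinate-CoA ligase beta subunit (HPB47_025153), with 13.2, 27.9 and 12.6 CPM against 6.60, 10.9 and 7.53 and no overlap (log2 fold change 1.08, SE 0.59, edgeR adjusted p = 0.964). It was the 1 of 18 neighbouring pathway genes without overlap, against 5.31% of all tested genes with antigen p23 higher, and the adjoining model of the subunit, HPB47_025152, had a log2 fold change of -0.17 (SE 0.73) with overlap. The smallest p in the comparison of the knockdowns was that of cytoplasmic aconitase (HPB47_011204), which in its iron-free form binds RNA in animals, with 368, 245 and 203 CPM in antigen p23 against 184, 138 and 183 in metalloprotease (log2 fold change 0.70, SE 0.33, edgeR adjusted p = 0.998). Its groups did not overlap there, nor did those of the succinate-CoA ligase alpha subunit (HPB47_022598, 0.58, SE 0.32) and of ribulose-phosphate 3-epimerase (HPB47_022326, 0.78, SE 0.43), all higher in antigen p23. These were 1 of 8 genes spelled otherwise and 2 of 18 neighbouring pathway genes, against 3.68% of all tested genes in that direction, and with so few genes nothing is read from the difference. The E1 alpha subunit of pyruvate dehydrogenase (HPB47_024156) was above control in metalloprotease by 1.36 (SE 0.63, edgeR adjusted p = 1.00), from levels under 10 CPM. The table held 0 gene models with the 6-phosphogluconate dehydrogenase domain.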

How the data were processed

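Deposited values are raw read counts of 28510 genes in 9 libraries, 1 per pool of midguts. Per the study's methods, the authors filtered their reads, mapped these with Bowtie2 2.5.3 to the assembly BIME_Iper_1.3 of another tick species, Ixodes persulcatus, and obtained gene counts from featureCounts without normalization. How strand and multiple mapping were set is not given in the sources used here. Similar genes may therefore share counts. The deposited table also holds names (best Swiss-Prot match), positions, Pfam domains and a coding length (97.9% of lengths are multiples of 3).

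Each comparison used its 6 libraries in R 4.3.3 with edgeR 4.0.16 (filterByExpr, TMM, robust quasi-likelihood F test, group as the only term), with Benjamini-Hochberg adjustment over all genes tested, a threshold of 0.05 and no minimum fold. Of the 35 members, 28 were tested in all 3 comparisons, 29 in at least 1 and 6 in none. DESeq2 1.42.0 was an alternative. Code was tested on simulated data. Library totals were 3303358 to 9430607 counts, and a count of 0 was taken to allow 3 counts. P values measure the spread between pools only. Each SE of an edgeR log2 fold change is that value without its sign, divided by the square root of its F statistic.

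Genes named in the text are, in each pathway, the 5 highest members per kb and the 2 with the smallest p in each comparison, every member at an unadjusted p of 0.05, the pyruvate carboxylase pair (known from the study's tables), members of enzymes with at most 3 gene models and, of other pathway genes, the 2 with the smallest p. Genes of the ratios and of the neighbouring succinate-CoA ligase models, and others outside this rule, were added after their values were seen. Members, lists and tests were chosen with earlier results of these data known. Read without regard to capital letters, the rule finds 60 genes, which was an alternative. Further alternatives were DESeq2 size factors, a looser and a stricter filter, a joint fit of all libraries, a fit that was not robust, a replicate block, only members assigned to a step, and each library left out. Leaving out pairs of libraries and summing the pyruvate carboxylase models were chosen after seeing the data.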

Additional observations from a re-analysis of the deposited data

How the results depend on the processing

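In each comparison 0 members passed an adjusted p of 0.05 under every one of the 51 alternative counts. Among these, names in any case and members assigned to a step reuse the main fits. Those fits called 0% of all tested genes, so these counts of 0 were fixed in advance. For the other alternatives, apart from DESeq2, the share of all tested genes that passed is not given. Their counts of 0 therefore say nothing particular to the members. All 51 alternative median log2 fold changes stayed within the spread between libraries: -0.06 to 0.34 for antigen p23 against GFP control, -0.06 to 0.30 for metalloprotease against GFP control and -0.22 to 0.04 between the knockdowns. Counts at an unadjusted p of 0.05 were small and moved. For antigen p23 against GFP control (0 members) they were 3 with no filter and with DESeq2, 1 with at least 10 counts in every library, with all 9 libraries in 1 fit, with the replicate block and with the pyruvate carboxylase models summed, 2 without antigen p23 replicates 1 and 2 together, and 1 to 3 when 1 library was left out. For metalloprotease against GFP control (0 members) the count was 1 without GFP control replicate 2 and metalloprotease replicate 1 together, and 0 to 1 when 1 library was left out. Between the knockdowns (1 member) it was 3 with no filter, 2 with at least 10 counts in every library, with the replicate block and with DESeq2, 0 with all 9 libraries in 1 fit, and 0 to 2 when 1 library was left out. Apart from DESeq2, shares of all tested genes are not given for these, so no excess is read. Causes were not tested.

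Of 501 alternative values of 34 named log2 fold changes, 483 kept their direction. For antigen p23 against GFP control, 4-hydroxy-2-oxoglutarate aldolase (HPB47_016669) turned to 0.074 with the replicate block, 0.53 without GFP control replicate 2, 0.20 with antigen p23 replicate 2 left out and 0.24 with its replicates 1 and 2 left out. HPB47_020672 turned to -0.25 and -0.46 under the last 2 of these, transketolase (HPB47_025614) to -0.017 under the last, and phosphatase 1 (HPB47_007252) to 0.15 without GFP control replicate 2. For metalloprotease against GFP control, phosphatase 1 turned to -0.28, -0.25 and -1.18 without GFP control replicate 1, GFP control replicate 3 and metalloprotease replicate 1, HPB47_016669 to -0.073 without GFP control replicate 1, and HPB47_025355 to 0.63 without GFP control replicate 3. HPB47_025356 turned to 0.95 without that library, 0.13 with the replicate block and 0.019 without metalloprotease replicate 1. Between the knockdowns, 6-phosphogluconolactonase (HPB47_017917) turned to -0.31 without antigen p23 replicate 2 and transketolase to -0.22 without antigen p23 replicates 1 and 2. With 1 library left out, these values ran from -1.73 to 0.15 (HPB47_007252), -0.42 to 0.53 (HPB47_016669) and -0.25 to 0.53 (HPB47_020672) for antigen p23 against GFP control. For metalloprotease against GFP control they ran from -1.18 to 1.56 (HPB47_007252), -0.073 to 0.84 (HPB47_016669), -0.79 to 0.63 (HPB47_025355) and -0.62 to 0.95 (HPB47_025356), and between the knockdowns from -0.31 to 1.24 (HPB47_017917). With library totals in place of TMM, 31 of 31 member levels averaged over the 9 libraries moved by less than the SD between replicates, but scaling factors that differ between libraries (0.794 to 1.26) largely cancel in such a mean. Single libraries moved by those factors, and the antigen p23 and GFP control libraries overlapped at DHKTD1 with TMM and not as shares of library totals. Replicate numbers share no stated origin, and after subtracting group means same-numbered libraries correlated between -0.50 and 0.14, so the block is an alternative only.

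With 3 pools per group, differences at weakly expressed members such as phosphofructokinase (9 to 108 counts per library) could not be resolved, and a p above the threshold does not show that groups were alike.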
